A study of Mus musculus with 2 samples.

Results

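The immunity-related GTPases are 7 mouse genes (Igtp, Irgm1, Irgm2, Iigp1, Tgtp1, Tgtp2 and Ifi47), chosen by gene symbol from the 32285 genes of 2 single-cell RNA libraries. All 7 were found in the gene lists of both libraries. The libraries hold cells taken from MC38 tumours at day 14 after inoculation. MC38 is a mouse colon carcinoma line, and the same line was given to both groups of mice, so the genotype is that of the host. One library came from wild-type (WT) mice and the other from mice of the genotype Ifnar1-SA. Ifnar1 encodes a chain of the receptor for type I interferon, and what SA stands for is not spelled out in the labels. No treatment was given to either group. With 1 library per genotype, and no statement of how many mice each library pools, there was no replicate check and no test between genotypes. The intervals given below are exact 95% intervals that cover counting error only.

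Immunity-related GTPases are among the genes most strongly induced by interferons in the mouse. They work in cell-autonomous defence, in which a cell attacks the vacuole of an intracellular parasite or bacterium. Effector members (Iigp1, Tgtp1, Tgtp2 and Ifi47) can load onto such a vacuole and disrupt it, whereas regulatory members (Igtp, Irgm1 and Irgm2) sit on the cell's own membranes and hold the effectors inactive there. Both interferon gamma, through the GAS element of promoters, and type I interferon, through the ISRE element, induce genes of this kind.

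Levels were compared in gates set by UMI counts (counts of distinct RNA molecules) per barcode. A CD8 T barcode held at least 2 UMIs of Cd3e, Cd3g and Trac together and at least 2 of Cd8a and Cd8b1. A Treg barcode held at least 2 UMIs of the same T cell genes and at least 1 of Foxp3. Macrophage barcodes held at least 20 UMIs of C1qa, C1qb and C1qc, and the gate named tumour-like held at least 10 UMIs of Rhox5, Tm4sf1 and Sdc2. Barcodes in more than 1 of these gates were left out as mixed (239 in WT, 398 in Ifnar1-SA). The WT and Ifnar1-SA libraries gave 1012 and 701 CD8 T barcodes, 344 and 504 Treg barcodes, 1404 and 1963 macrophage barcodes, and 174 and 190 barcodes of the Rhox5, Tm4sf1 and Sdc2 gate. Of the 3 tumour-like markers that did not set this last gate, Krt18 and Epcam had 0 UMIs in both libraries and Krt8 had 1 UMI in Ifnar1-SA, so the gate is called Rhox5-high here.

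The libraries differed in ways that touch these gates. WT held 55497066 UMIs and Ifnar1-SA 62732220, with 4058 and 5001 barcodes kept, and 7 kept barcode sequences occurred in both. One label calls the cells tumour-infiltrating immune cells and another calls them CD8 T cells, and CD8 T barcodes were 24.9% of the kept barcodes in WT and 14.0% in Ifnar1-SA. In Ifnar1-SA, 537 kept barcodes had UMIs of Y-linked genes and none of Xist, against 1 in WT, so the Ifnar1-SA library alone held a sizeable number of Y-linked barcodes. Macrophage markers (C1qa, C1qb, C1qc, Csf1r, Apoe and Lyz2) summed to 422 UMIs per 1000000 UMIs of the gate (CPM) in the CD8 T gate of WT and to 1121 CPM in that of Ifnar1-SA. In the Treg gate they summed to 535 CPM and 1482 CPM. Barcodes of 1 to 100 UMIs, which hold mostly free RNA, gave a summed level of the 7 members of 354 CPM (338 to 370) in WT and 477 CPM (459 to 496) in Ifnar1-SA. For free RNA the ratio between libraries on the log2 scale, with WT as the base, was 0.43 (0.35 to 0.52).

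In the GRCm38 (mm10) build with GENCODE M21 annotation all 7 members are protein-coding, and all but Iigp1 lie on chromosome 11. One cluster holds Irgm1 (chr11:48861968-48871683, minus strand), Tgtp1 (chr11:48985327-48994172, minus strand), Tgtp2 (chr11:49057194-49064206, minus strand) and Ifi47 (chr11:49076587-49096974, plus strand). A separate locus holds Igtp (chr11:58199556-58207591, plus strand) and Irgm2 (chr11:58199618-58222782, plus strand), whose annotated spans overlap on the same strand, so the split of UMIs between them is uncertain where their transcripts coincide. Of the stretches of 90 bases in Tgtp2 transcripts, 78.6% also occur in Tgtp1, and 72.0% of those of Tgtp1 occur in Tgtp2. The split of UMIs between Tgtp1 and Tgtp2 is therefore uncertain, and their sum is given as well. Igtp shares 6.13% of its stretches with Irgm2, while Irgm1 and Iigp1 share none with another gene.

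The promoters show which members carry the letters of the 2 interferon elements. RefSeq promoter windows of GRCm38.p6 (300 bases, from 250 before to 50 after the start) were read for the 6 members on chromosome 11. They were searched on both strands for the ISRE core (GAAA, any 2 bases and GAAA again) and the GAS core TTCNNNGAA, in which N is any base. The stretches with matches are printed 5′ to 3′ on the strand of the gene, with the matched letters in capitals: Igtp at chr11:58199486-58199556 (plus strand), Irgm2 at chr11:58214877-58214947 (plus strand), Tgtp1 at chr11:48992289-48992359 (minus strand), Tgtp2 at chr11:49064248-49064318 (minus strand) and Irgm1 at chr11:48871410-48871475 (minus strand).
Igtp: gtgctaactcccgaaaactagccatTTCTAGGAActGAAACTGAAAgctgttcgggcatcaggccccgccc
Irgm2: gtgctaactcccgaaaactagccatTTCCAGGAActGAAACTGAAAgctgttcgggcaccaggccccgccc
Tgtp1: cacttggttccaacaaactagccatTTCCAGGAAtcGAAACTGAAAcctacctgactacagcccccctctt
Tgtp2: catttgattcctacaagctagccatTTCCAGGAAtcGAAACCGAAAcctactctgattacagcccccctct
Irgm1: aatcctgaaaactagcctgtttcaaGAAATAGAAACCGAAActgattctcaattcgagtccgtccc

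In Igtp, Irgm2, Tgtp1 and Tgtp2 the GAS core was followed by the ISRE core, which started 11 bases after the start of the GAS core, without overlap. The GAS core started at -45 in Igtp, -75 in Irgm2, -88 in Tgtp1 and -81 in Tgtp2, counted from the RefSeq start. Irgm1 held 2 overlapping ISRE cores, at -30 and -24, and no GAS core in this window. The Ifi47 window held neither set of letters. Among all 32851 RefSeq promoter windows of this length, 3.44% held the ISRE core and 8.30% the GAS core. The GAS core with an ISRE core 11 bases on, a spacing read from the members themselves, occurred in 5 windows (0.0152%): those of the 4 members and of Gm12185, another gene of the same family type. A match is a run of letters and not evidence of binding.

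UMIs of all 7 members were present in each of the 4 gates, and the CD8 T gate had the lowest summed level in both libraries. The summed level was 180 CPM in WT (interval 171 to 190) against 257 CPM in Ifnar1-SA (243 to 272) in CD8 T barcodes. In Treg barcodes it was 702 CPM in WT (671 to 734) against 969 CPM in Ifnar1-SA (936 to 1003). The gap between T cell gates was thus wide in both libraries. Macrophage barcodes had 620 CPM in WT (609 to 632) against 721 CPM in Ifnar1-SA (710 to 732), and Rhox5-high barcodes had 825 CPM in WT (807 to 844) against 719 CPM in Ifnar1-SA (702 to 736). The CD8 T sums lay below that of free RNA of the same library and the sums of the other 3 gates above it. Each of the 7 members taken alone was also lower in CD8 T barcodes than in free RNA in both libraries. The intervals of these ratios were below 0. C1qa, a macrophage gene, was at 41.7 CPM in the CD8 T gate of WT against 2964 CPM in free RNA. In Ifnar1-SA it was at 51.5 CPM against 2784 CPM. A level below that of free RNA does not give the part of the gate's UMIs that is free RNA, and that part was not tested. In Treg barcodes Irgm1 was below its free RNA level in WT (40.8 CPM against 56.2 CPM) and near it in Ifnar1-SA (77.7 CPM against 80.3 CPM), and in macrophages Igtp was near it in WT (77.3 CPM against 78.9 CPM) and below it in Ifnar1-SA (98.3 CPM against 110 CPM). The order of the 4 gates was Rhox5-high, Treg, macrophage and CD8 T in WT, with no overlap between neighbouring intervals. In Ifnar1-SA it was Treg, macrophage, Rhox5-high and CD8 T, and the intervals of macrophage and Rhox5-high barcodes overlapped.

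**Figure D1:**
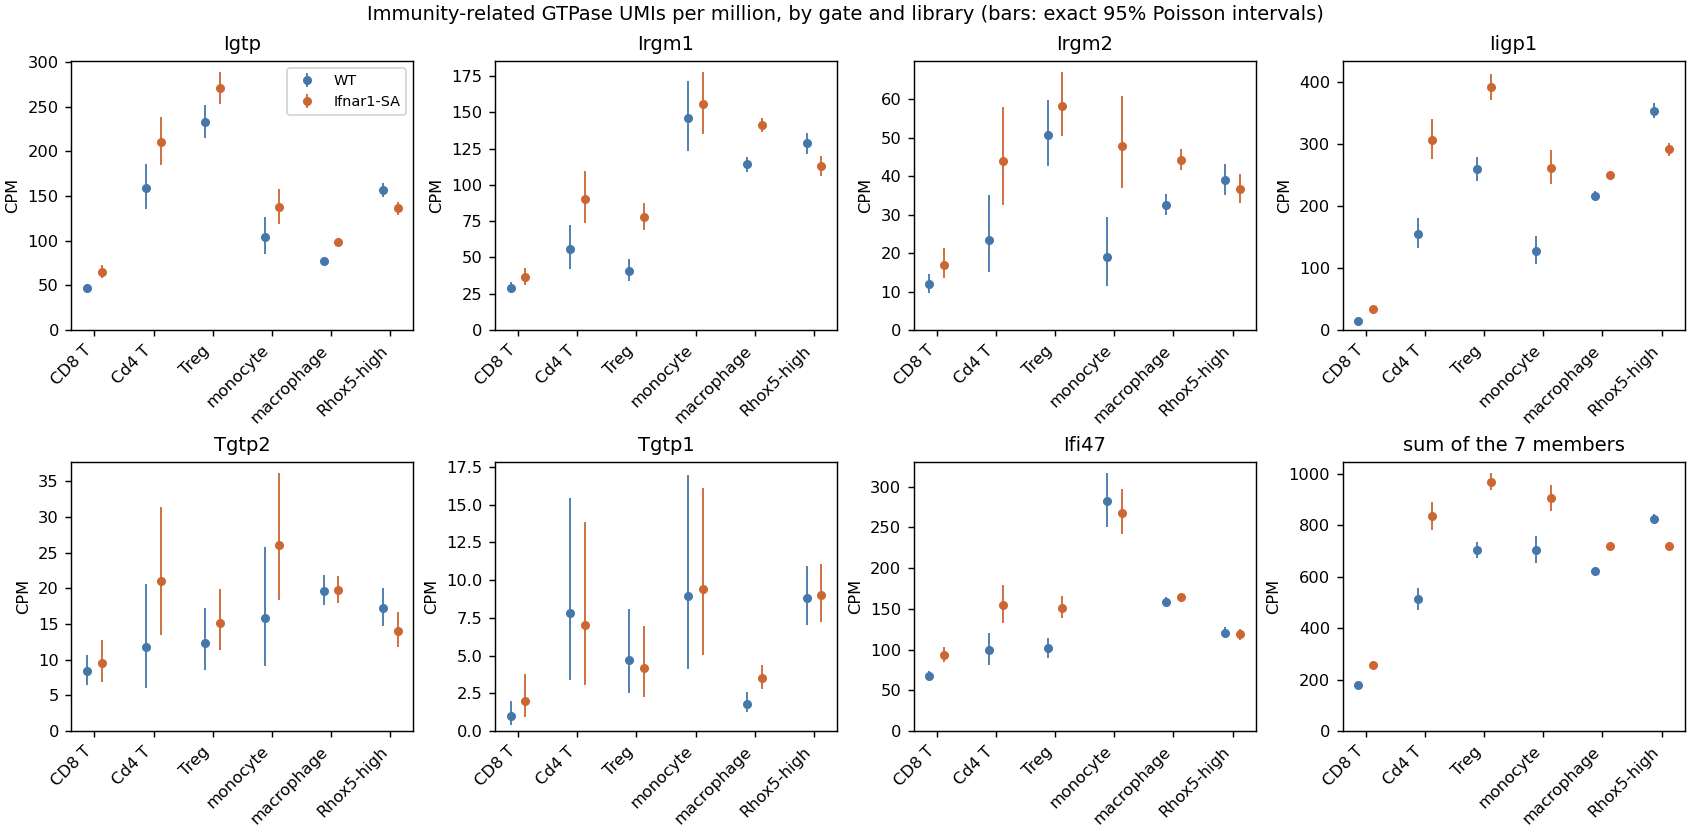
Level of each member and of their sum (CPM, y axis) in 6 gates (x axis), with WT in blue and Ifnar1-SA in orange; points are levels of the gate and bars are exact 95% Poisson intervals, with 1 library per genotype. The sum was lowest in the CD8 T gate of both libraries (180 and 257 CPM), and the Rhox5-high gate alone had a higher sum in WT (825 CPM) than in Ifnar1-SA (719 CPM).

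At equal depth the same order of gates held in WT for the share of barcodes with a UMI of any member. After thinning each barcode to 2000 UMIs, 28.6% of 926 CD8 T barcodes (25.7% to 31.6%) had such a UMI in WT and 32.4% of 635 (28.8% to 36.2%) in Ifnar1-SA. The corresponding Treg shares were 65.7% (60.3% to 70.9%) and 75.3% (71.1% to 79.1%), those of macrophages 58.9% (56.2% to 61.5%) and 67.0% (64.8% to 69.1%), and those of Rhox5-high barcodes 70.1% (62.7% to 76.8%) and 63.2% (55.9% to 70.0%). Thinning left out 86 and 66 shallower CD8 T barcodes, 20 and 35 Treg barcodes, 25 and 41 macrophage barcodes and no Rhox5-high barcode. Before thinning, 54.3% and 57.3% of CD8 T barcodes, 88.1% and 91.9% of Treg barcodes, 89.7% and 92.5% of macrophage barcodes and 100% and 99.5% of Rhox5-high barcodes had a UMI of the family. No gate here could serve as a cell type that lacks these genes. The part of free RNA in these shares was not tested, so the CD8 T shares are not read as shares of expressing cells. Thinned barcodes with 3 or more different members were 1.84% of CD8 T barcodes in WT and 3.78% in Ifnar1-SA, against 11.4% and 15.8% of Treg barcodes. The highest number of members seen in 1 thinned barcode was 6, in macrophages of both libraries.

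Among the regulators, Igtp, which keeps effectors off self membranes, was highest in Treg barcodes. Its level there was 233 CPM in WT (215 to 252) against 270 CPM in Ifnar1-SA (253 to 288), compared with 46.6 CPM (42.0 to 51.6) and 65.2 CPM (58.0 to 73.1) in CD8 T barcodes. Macrophages had 77.3 CPM of Igtp in WT and 98.3 CPM in Ifnar1-SA, and Rhox5-high barcodes had 157 CPM and 136 CPM. Macrophages thus had less Igtp than Treg and Rhox5-high barcodes. Irgm1, a regulator that also acts in autophagy and in the survival of mouse immune cells, had another order. It reached 114 CPM in WT against 141 CPM in Ifnar1-SA macrophages and 129 CPM and 113 CPM in Rhox5-high barcodes, but 40.8 CPM and 77.7 CPM in Treg and 29.1 CPM and 36.7 CPM in CD8 T barcodes. Irgm2, the third regulator, had its highest value of the 4 gates in Treg barcodes, at 50.7 CPM in WT against 58.3 CPM in Ifnar1-SA. It had 32.6 CPM and 44.3 CPM in macrophages, 39.0 CPM and 36.7 CPM in Rhox5-high barcodes and 12.0 CPM and 17.0 CPM in CD8 T barcodes. The intervals of Irgm2 in Treg and Rhox5-high barcodes of WT overlapped, and those in Treg and macrophage barcodes of Ifnar1-SA did not.

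Of the effectors, Iigp1, the best studied of the vacuole-disrupting members, set CD8 T barcodes apart from the other gates most. It lies at chr18:60376027-60392634 on the plus strand of GRCm38. Its level in CD8 T barcodes was 15.1 CPM in WT (12.5 to 18.0) against 33.1 CPM in Ifnar1-SA (28.1 to 38.9), from 119 and 150 UMIs. Treg barcodes had 259 CPM in WT (240 to 279) against 392 CPM in Ifnar1-SA (371 to 414), which was 17.2-fold and 11.8-fold the CD8 T level. Macrophages had 217 CPM and 250 CPM, and Rhox5-high barcodes had 354 CPM and 292 CPM. For comparison, free RNA held 105 CPM of Iigp1 in WT and 128 CPM in Ifnar1-SA. Ifi47, another effector, was spread more evenly: 68.1 CPM in WT against 93.7 CPM in Ifnar1-SA in CD8 T, 102 CPM and 152 CPM in Treg, 158 CPM and 164 CPM in macrophage, and 121 CPM and 119 CPM in Rhox5-high barcodes. Tgtp1 and Tgtp2, near-identical effectors, summed to 9.37 CPM and 11.5 CPM in CD8 T, 17.1 CPM and 19.4 CPM in Treg, 21.5 CPM and 23.3 CPM in macrophage, and 26.0 CPM and 23.1 CPM in Rhox5-high barcodes. Most of these UMIs were assigned to Tgtp2, and Tgtp1 was seen with 8 UMIs (WT) or 9 UMIs (Ifnar1-SA) in CD8 T barcodes.

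A gene was counted as measured in a comparison where its mean over the 2 values compared was at least 20 CPM, and as called where it differed at least 1.5-fold after adding 1 CPM. For macrophages over CD8 T barcodes, 5 of 5 measured members were called higher in WT, where 22.5% of all measured genes were, and 5 of 5 in Ifnar1-SA, where 22.6% were. None was called lower, where 33.8% of genes in WT and 28.1% in Ifnar1-SA were. Between Treg and CD8 T barcodes, 3 of 5 were called higher in Treg barcodes of WT (16.4% of all genes) and 5 of 5 in those of Ifnar1-SA (17.0%), and none was called lower (6.28% and 6.61% of all genes). Between Rhox5-high and CD8 T barcodes, 5 of 5 were called higher in Rhox5-high barcodes of WT (34.6% of all genes) and 4 of 5 in those of Ifnar1-SA (36.8%), and none was called lower (23.3% and 22.7% of all genes). The log2 ratio of macrophages over CD8 T barcodes for the summed family was 1.78 (1.70 to 1.86) in WT and 1.49 (1.40 to 1.57) in Ifnar1-SA. That ratio was 1.07 and 0.82 when barcodes in several gates were counted in each gate.

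A pair of smaller gates was read in the same way. They were Cd4 T barcodes without Foxp3 (203 in WT, 241 in Ifnar1-SA) and monocytes (151 and 268), which carry Ly6c2 and Lyz2 and fall in none of the 4 gates above. The summed family was 512 CPM and 834 CPM in Cd4 T barcodes, above CD8 T barcodes of the same library in both. Monocytes had 704 CPM and 905 CPM. Ifi47 was highest in monocytes, at 282 CPM in WT against 268 CPM in Ifnar1-SA, and Irgm1 was 146 CPM and 155 CPM there. The other 9 fixed lineage gates held fewer than 50 barcodes in a library and were not used.

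In the comparison of genotypes, which bears on a change in the type I interferon receptor of the host, the family was higher in Ifnar1-SA in the T cell gates and macrophages and lower in the Rhox5-high gate. For the summed family the log2 ratio, with WT as the base, was 0.51 (0.40 to 0.63) in CD8 T, 0.47 (0.38 to 0.55) in Treg and 0.22 (0.18 to 0.25) in macrophage barcodes. In Rhox5-high barcodes it was -0.20 (-0.25 to -0.15). These were differences between 2 libraries, and the spread between mice is not known. Over all genes measured the median log2 ratio was 0.00 in CD8 T, -0.01 in Treg, 0.07 in macrophage and 0.03 in Rhox5-high barcodes. Over the measured members it was 0.47, 0.57, 0.30 and -0.19. Of all genes measured, 50.7% in CD8 T, 48.4% in Treg, 68.3% in macrophage and 60.3% in Rhox5-high barcodes were higher in Ifnar1-SA, so counts of higher genes below are to be read against these shares.

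**Figure D2:**
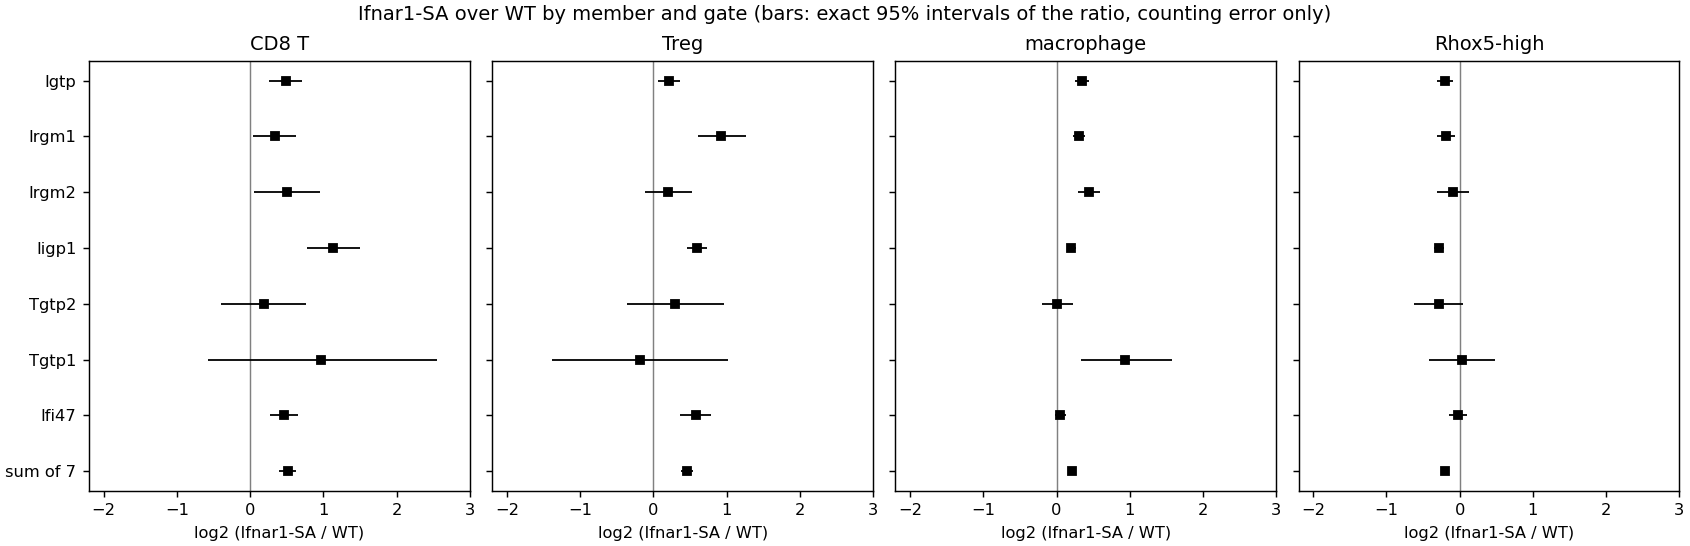
Log2 ratio of Ifnar1-SA over WT (x axis) for each member and for their sum (y axis) in 4 gates; squares are ratios of CPM, bars are exact 95% intervals of the ratio from counting error, and the vertical line marks no difference. The sum was above 0 in CD8 T (0.51), Treg (0.47) and macrophage (0.22) barcodes and below 0 in Rhox5-high barcodes (-0.20).

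In CD8 T barcodes, 4 members were measured and all 4 had a higher value in Ifnar1-SA. Iigp1 was called higher, which makes 1 of 4 where 3.02% of all measured genes were called higher. None of the 4 was called lower, against 2.33% of all genes. The log2 ratio was 1.14 (0.78 to 1.5) for Iigp1, 0.48 (0.26 to 0.71) for Igtp, 0.46 (0.27 to 0.65) for Ifi47 and 0.33 (0.04 to 0.63) for Irgm1. The interval of Iigp1 did not overlap those of the other 3. Below the level needed to count as measured, Irgm2 had a log2 ratio of 0.50 (0.05 to 0.95) and the sum of Tgtp1 and Tgtp2 0.29 (-0.25 to 0.83). Free RNA, which was above the CD8 T level for each member, had ratios of 0.28 (0.12 to 0.45) for Iigp1, 0.47 (0.29 to 0.66) for Igtp, 0.45 (0.27 to 0.63) for Ifi47 and 0.51 (0.30 to 0.73) for Irgm1. The interval of the Iigp1 ratio in CD8 T barcodes lay above that of free RNA, whereas those of Igtp, Ifi47 and Irgm1 overlapped theirs. The higher macrophage marker level in this gate of Ifnar1-SA stood beside these ratios as well. In T barcodes with fewer than 3 C1q UMIs and no UMI of Rhox5, Tm4sf1 or Sdc2, macrophage markers still summed to 335 CPM and 712 CPM, the family ratio was 0.39 and that of Iigp1 was 0.91. With the Y-linked barcodes of Ifnar1-SA set against all WT barcodes, the family ratio in CD8 T barcodes was 0.18 (134 Y-linked barcodes), and with barcodes that held Xist and no Y-linked UMI in both libraries it was 0.56. The Y-linked barcodes held 204 CPM (174 to 238) from 162 family UMIs, an interval that overlapped that of all WT barcodes (171 to 190). Those of Ifnar1-SA with Xist alone held 262 CPM (245 to 280), with an interval apart from the Y-linked one. In the Y-linked setting Iigp1 was at 0.32, Ifi47 at 0.05 and Irgm1 at -0.36. The part of free RNA, of macrophage RNA and of the animals' sex in the CD8 T ratio was not tested beyond these values.

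In Treg barcodes, 5 members were measured and all 5 had a higher value in Ifnar1-SA. Irgm1 and Iigp1 were called higher, 2 of 5 where 4.25% of all measured genes were, and none was called lower, where 2.67% were. Irgm1 had 40.8 CPM in WT (33.6 to 49.1) against 77.7 CPM in Ifnar1-SA (68.6 to 87.7), which gave a log2 ratio of 0.93 (0.60 to 1.26). Iigp1 had a log2 ratio of 0.60 (0.46 to 0.73) and Ifi47 of 0.58 (0.36 to 0.79). Igtp was at 0.22 (0.07 to 0.36), and the interval of Irgm2 included 0 (0.20, -0.12 to 0.53). The regulators therefore did not differ between genotypes to a like extent, since the intervals of Irgm1 and Igtp did not overlap. Free RNA had ratios of 0.51 (0.30 to 0.73) for Irgm1 and 0.47 (0.29 to 0.66) for Igtp, and both intervals overlapped those in Treg barcodes. The Treg level of Irgm1 was below its free RNA level in WT and near it in Ifnar1-SA, whereas that of Igtp was above it in both. The part of free RNA in these ratios was not tested. With fewer than 3 C1q UMIs per Treg barcode and no UMI of Rhox5, Tm4sf1 or Sdc2 the family ratio was 0.49 (macrophage markers then summed to 449 CPM and 1066 CPM), and it was 0.26 when barcodes in several gates were counted in each gate. In the 24 Y-linked Treg barcodes of Ifnar1-SA against all those of WT, Irgm1 was at 1.54 and Ifi47 at 0.92.

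In macrophages, 5 members were measured, all 5 had a higher value in Ifnar1-SA, as 68.3% of all genes there did, and none was called, where 1.14% of all genes were called higher and 0.829% lower. The log2 ratio was 0.44 (0.29 to 0.59) for Irgm2, 0.35 (0.25 to 0.45) for Igtp, 0.31 (0.23 to 0.39) for Irgm1 and 0.20 (0.14 to 0.26) for Iigp1. These 4 values lay above the median of all genes in that gate, which was 0.07. For Ifi47 the ratio was 0.05 (-0.02 to 0.13). Tgtp1, far below 20 CPM, had 32 UMIs (1.82 CPM) in WT and 78 UMIs (3.50 CPM) in Ifnar1-SA, while the sum of Tgtp1 and Tgtp2 had a ratio of 0.12 (-0.08 to 0.31). Here the 3 regulators had higher ratios than the effectors Iigp1 and Ifi47, an order that differed from that in CD8 T barcodes, although the intervals of Igtp and Irgm1 overlapped that of Iigp1 and the difference between gates was not tested. When the gate was limited to barcodes without T cell UMIs and with Xist, the family ratio was 0.11.

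In Rhox5-high barcodes, 5 members were measured, all 5 had a lower value in Ifnar1-SA and none was called, where 0.203% of all genes were called higher and 1.03% lower. Iigp1 had a log2 ratio of -0.28 (-0.35 to -0.21), Igtp of -0.20 (-0.31 to -0.10) and Irgm1 of -0.19 (-0.31 to -0.07). The intervals of Irgm2 (-0.09, -0.30 to 0.12) and Ifi47 (-0.02, -0.14 to 0.10) included 0. Of these barcodes, 165 of 174 in WT and 177 of 190 in Ifnar1-SA held neither Xist nor Y-linked UMIs. The family ratio was -0.12 in barcodes outside the cell cycle.

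In the smaller gates the family ratio was 0.70 (0.55 to 0.86) in Cd4 T barcodes and 0.36 (0.23 to 0.50) in monocytes. The Treg and macrophage markers in the Cd4 T gate, given above, stand beside the Cd4 T value. In Cd4 T barcodes 4 of 5 measured members were called higher, where 8.16% of all genes were and 3.4% were called lower, and Iigp1 had the highest ratio, 0.99 (0.71 to 1.27). In monocytes 3 of 6 measured members were called higher, where 7.22% of all genes were and 3.87% were called lower. There Irgm2 was at 1.34 (0.59 to 2.16) from 19 and 66 UMIs, Iigp1 at 1.04 (0.74 to 1.34), and Ifi47 at -0.08 (-0.30 to 0.15). Monocytes thus showed the widest spread among members, from Irgm2 down to Ifi47.

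Subsets of the gates differed in the CPM of the family, which is a share of the UMIs of the subset. Cycling barcodes were those with at least 2 UMIs of Mki67 and Top2a together. Among CD8 T barcodes the CPM of the family was lowest in cycling ones, at 128 CPM in WT against 160 CPM in Ifnar1-SA. Next were non-cycling ones with at least 3 UMIs of Xcl1, a chemokine of T cells that attracts cross-presenting dendritic cells, at 133 CPM and 183 CPM. Non-cycling barcodes low in Xcl1 and with at least 3 UMIs of Gzmb, the cytotoxic granule protease, had 289 CPM and 349 CPM. Those low in both had 226 CPM (202 to 251) and 376 CPM (339 to 415), the widest gap between libraries among the 4 CD8 T subsets (log2 ratio 0.74, 0.52 to 0.95). Iigp1 in that subset was 19.7 CPM in WT against 62.6 CPM in Ifnar1-SA (log2 ratio 1.67, 1.01 to 2.35). In the Gzmb-high subset the interval of the Iigp1 ratio included 0 (0.38, -0.26 to 1.02). Counted per barcode, cycling CD8 T barcodes were not lowest. In WT 286 of them held 501 family UMIs, where 342 barcodes low in both Xcl1 and Gzmb held 332. In Ifnar1-SA 118 cycling barcodes held 215, and 248 low in both held 378. Cycling barcodes were 28.3% of the CD8 T gate in WT but 16.8% in Ifnar1-SA, and the family ratio over non-cycling CD8 T barcodes alone was 0.37.

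Cycling Treg barcodes also had a lower CPM of the family than non-cycling ones, with 552 CPM against 889 CPM in WT and 799 CPM against 1073 CPM in Ifnar1-SA. Per barcode the order was the reverse. In WT 115 cycling Treg barcodes held 838 family UMIs and 229 non-cycling ones held 1089. In Ifnar1-SA 106 cycling ones held 1016 and 398 non-cycling ones held 2240. The ratio between libraries was 0.54 (0.40 to 0.67) in cycling and 0.27 (0.17 to 0.38) in non-cycling Treg barcodes. For Iigp1 it was 0.90 (0.68 to 1.11) in cycling and 0.28 (0.11 to 0.46) in non-cycling ones, and for Irgm1 it was 0.51 (-0.02 to 1.04) and 1.06 (0.62 to 1.52). The intervals of the subsets did not overlap for Iigp1 but did for Irgm1, so no order between the Treg subsets is read for Irgm1. Macrophage levels varied less. Cycling ones had 623 CPM and 716 CPM. Non-cycling ones with at least 5 UMIs of Mrc1, Folr2 and F13a1 (genes of tissue-resident type macrophages) had 602 CPM and 766 CPM, and the rest 626 CPM and 714 CPM. The ratio between libraries was 0.20 (0.12 to 0.28), 0.35 (0.26 to 0.43) and 0.19 (0.14 to 0.23) in this order. The intervals of the last pair did not overlap. The Mrc1, Folr2 and F13a1 subset was 18.2% of the macrophage gate in WT and 8.76% in Ifnar1-SA. Cycling Rhox5-high barcodes had 792 CPM and 645 CPM, and non-cycling ones 878 CPM and 808 CPM.

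**Figure D3:**
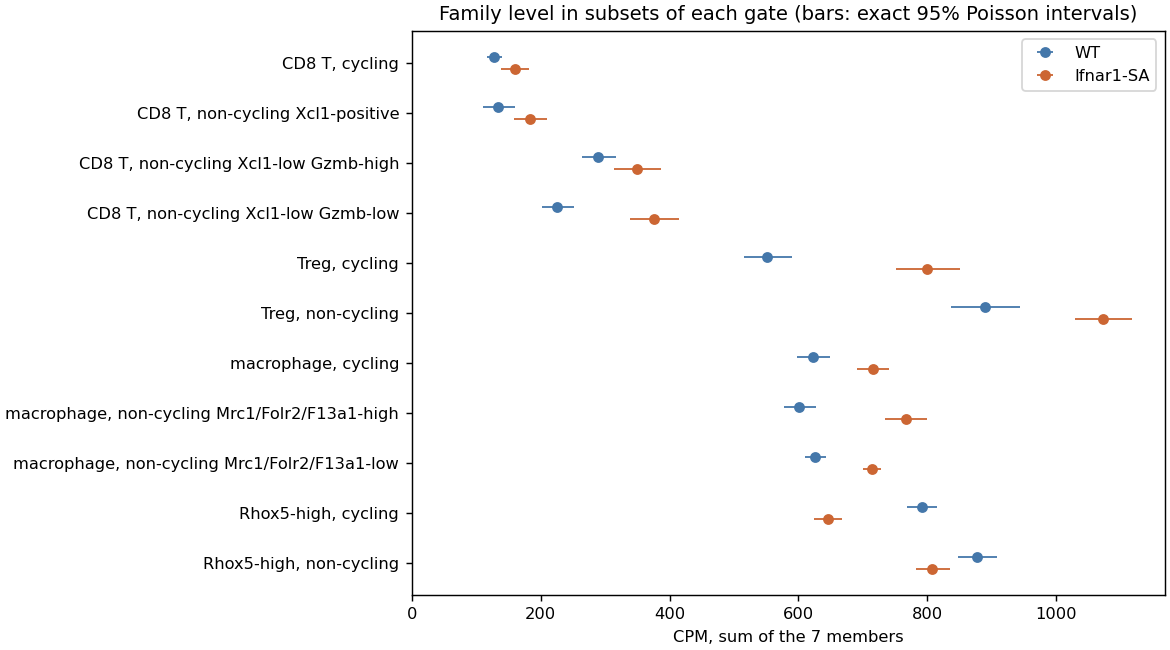
Summed level of the 7 members (CPM, x axis) in subsets of the 4 gates (y axis), with WT in blue and Ifnar1-SA in orange and exact 95% Poisson intervals as bars. Cycling CD8 T barcodes were lowest in CPM (128 and 160 CPM), and non-cycling Treg barcodes of Ifnar1-SA were highest (1073 CPM).

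The family varied within gates together with other interferon-induced genes. Each barcode was thinned to 2000 UMIs and placed by its UMIs of 10 guanylate-binding protein genes (Gbp), large GTPases of the same defence system, or of 7 type I interferon targets of the Ifit, Isg15 and Rsad2 group. CD8 T barcodes of WT had a mean of 0.242 family UMIs with no Gbp UMI, 0.461 with 1 to 2 and 1.34 with 3 or more. In Ifnar1-SA these means were 0.281, 0.606 and 2.03. Such a climb was present in all 4 gates and both libraries for each of the 2 gene groups. The barcodes share library and depth, so this describes cells within 2 libraries. The bins were not repeated in T cell barcodes with few UMIs of other lineages, and the part of macrophage RNA in the climb was not tested. CD8 T barcodes with a UMI of both groups had 1.14 family UMIs in WT and 1.34 in Ifnar1-SA, while those with neither had 0.217 and 0.259, those with Gbp alone 0.311 and 0.415, and those with the type I targets alone 0.336 and 0.358.

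Within bins of the type I targets the libraries lay close in the T cell gates and macrophages. Treg barcodes with 3 or more UMIs of those targets had 3.24 family UMIs in WT (2.69 to 3.86) against 3.31 in Ifnar1-SA (2.99 to 3.65), and those with none had 1.27 (1.11 to 1.43) and 1.40 (1.24 to 1.58). The share of Treg barcodes in the highest bin was 11.7% in WT and 25.4% in Ifnar1-SA. CD8 T barcodes in the highest bin had 1.77 (1.49 to 2.08) and 1.99 (1.70 to 2.31) family UMIs, and their share was 8.86% and 13.7%. In macrophages the highest bin held 35.0% of barcodes in WT and 50.3% in Ifnar1-SA, with 2.05 (1.92 to 2.18) and 1.92 (1.83 to 2.01) family UMIs. Intervals of the libraries thus overlapped in these bins. By Gbp UMIs they did not overlap in the highest bin of Treg barcodes, which had 2.35 (2.03 to 2.72) in WT and 3.44 (3.15 to 3.76) in Ifnar1-SA. The same held in the highest Gbp bin of CD8 T barcodes, with 1.34 (1.11 to 1.61) and 2.03 (1.70 to 2.40). It also held in macrophages with 0 Gbp UMIs, with 0.861 (0.787 to 0.940) and 1.09 (1.02 to 1.17). In the other Gbp bins of the 4 gates the intervals overlapped.

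**Figure D4:**
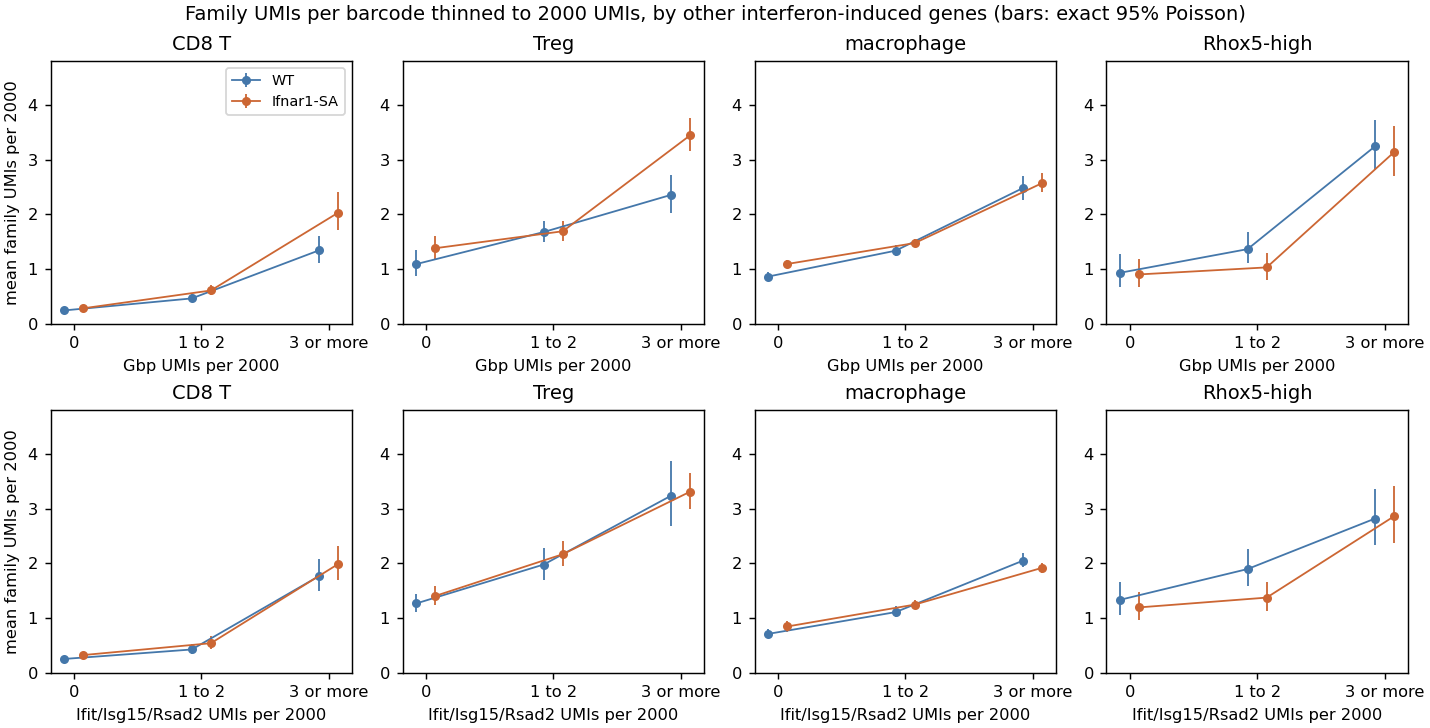
Mean UMIs of the 7 members per barcode thinned to 2000 UMIs (y axis) against the barcode's UMIs of guanylate-binding protein genes (top row, x axis) or of the Ifit, Isg15 and Rsad2 group (bottom row, x axis) in 4 gates, WT in blue and Ifnar1-SA in orange, bars exact 95% Poisson intervals. Means climbed from the bin of 0 to the bin of 3 or more in each panel, for instance from 0.242 to 1.34 for Gbp in WT CD8 T barcodes.

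Members were seen together in the same barcodes. Of the 168 combinations of 2 members, gate and library, 51 had a product of shares of at least 10 thinned barcodes, and in all 51 the number with both members was above the product. No such count was made for pairs of other genes, and each gate mixes subsets that differ in family level. The count is therefore not read as a trait particular to the family. In thinned WT macrophages 90 barcodes held both Igtp and Iigp1, where the product of the 2 shares was 56.0 barcodes, and 141 held both Iigp1 and Ifi47, where it was 97.1. In thinned WT CD8 T barcodes 19 held both Igtp and Ifi47, against 12.7. Across 12 points (6 gates in 2 libraries) the members did not all follow 1 pattern. Pearson's r of log2(CPM + 10) was 0.90 for Irgm2 and Iigp1, 0.85 for Irgm1 and Tgtp2, 0.83 for Irgm1 and Ifi47 and 0.80 for Igtp and Iigp1, but 0.20 for Igtp and Irgm1. Igtp was highest in Treg barcodes and Ifi47 in monocytes of both libraries, with intervals apart from the next gate. Irgm2 had its highest value in Treg barcodes and Irgm1 in monocytes, but in both libraries these intervals overlapped that of the next gate.

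Of 4573 other genes compared across these 12 points, the one most like the family sum was Ube2l6, the conjugating enzyme for the ubiquitin-like protein ISG15, at r = 0.93. Next were Ube2f and Gng12, both at 0.92, Gbp3 at 0.91 and Tapbp, the peptide-loading factor tapasin, at 0.88. The other 5 of the leading 10 were Sdc4, Camk2d, Marc2, Sypl and Tmbim4, from 0.88 down to 0.83. Ifng, which encodes interferon gamma, ranked 4545 with r = -0.80. The points share 2 libraries, and the values are descriptions.

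Other genes of the interferon system were read in lists. Of 11 further genes of the family type, 9 were in the gene lists, and few reached 20 CPM. Of these, 9930111J21Rik2 had 29.9 CPM in WT against 46.6 CPM in Ifnar1-SA in CD8 T barcodes, 34.6 CPM and 71.2 CPM in Treg, 20.8 CPM and 44.9 CPM in macrophage, and 31.8 CPM and 38.4 CPM in Rhox5-high barcodes. Its log2 ratio in macrophages, 1.11 (0.94 to 1.29), was above those of the 5 measured members there. Gm4951 was at 0.52 in Treg, 0.30 in macrophage and 0.03 in Rhox5-high barcodes, and F830016B08Rik was at 0.37 in Treg and -0.28 in Rhox5-high barcodes. Gm12185, which shares the paired promoter letters, had 3.8 CPM and 5.6 CPM in macrophages.

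The guanylate-binding proteins, 10 of 11 of which were in the gene lists, had medians of the same sign as the members in each gate. In CD8 T barcodes 4 of 7 measured ones were higher in Ifnar1-SA (median log2 ratio 0.10), with Gbp2 at 0.79 and Gbp6 at 0.53, and Gbp8 at -0.08 and Gbp7 at -0.03. In Treg barcodes 7 of 8 were higher (median 0.50), with Gbp9 at 0.64 and Gbp2 at 0.61, and Gbp5 at -0.03 and Gbp3 at 0.14. Macrophages had 7 of 8 higher (median 0.20), with Gbp6 at 0.32 and Gbp5 at 0.29, and Gbp3 at 0.13. The exception was Gbp8 at -0.33 (-0.48 to -0.17), opposite in sign to the members. Rhox5-high barcodes had 6 of 6 lower (median -0.33), with Gbp6 at -0.48 and Gbp4 at -0.43, and Gbp7 at -0.25 and Gbp9 at -0.23.

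Targets that lean towards type I interferon had medians farther from 0 than the members in the 4 main gates. The same held in Cd4 T barcodes (1.09 against 0.69) but not in monocytes. There 17 of 24 targets were higher in Ifnar1-SA, where 58.4% of all measured genes were. Their median was 0.09, against 0.54 for the members and 0.07 for all genes. All 15 measured targets were higher in Ifnar1-SA CD8 T barcodes (median log2 ratio 0.60), from Ifi204 at 1.41 and Irf7 at 0.94 to Phf11b at 0.23 and Ifit2 at 0.22. In Treg barcodes 19 of 20 were higher (median 1.47). Rsad2, an antiviral enzyme, had 13.1 CPM in WT against 93.5 CPM in the other library there (log2 ratio 2.83), Oasl1 was at 2.62, Phf11b at 0.50 and Oas1a at -0.07. In macrophages 22 of 23 were higher (median 0.43), with Ifit3b at 0.84, Ifi44 at 0.69, Phf11b at 0.15 and Oas1a at -0.25. In Rhox5-high barcodes 15 of 17 were lower (median -0.61), with Cmpk2 at -0.98 and Rsad2 at -0.91, and with Oasl2 at 0.03 and Rtp4 at 0.01.

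The receptor of type I interferon and the factors it signals through had 7 of 7 measured genes higher in Ifnar1-SA CD8 T barcodes (median 0.26), 5 of 7 in Treg (median 0.39), 5 of 6 in macrophage (median 0.29) and 1 of 6 in Rhox5-high barcodes (median -0.08). Irf7, a transcription factor of the type I response, had a log2 ratio of 0.94 in CD8 T, 1.77 in Treg, 0.55 in macrophage and -0.64 in Rhox5-high barcodes. Usp18, which damps signalling of this receptor, was at 0.64 in CD8 T, 1.52 in Treg and -0.60 in Rhox5-high barcodes, and Stat2 was at 0.47 in macrophages. Ifnar1 itself had a log2 ratio of 0.27 (0.08 to 0.46) in CD8 T, 0.16 (-0.08 to 0.41) in Treg, 0.11 (0.002 to 0.21) in macrophage and 0.20 (-0.04 to 0.44) in Rhox5-high barcodes; the files do not resolve the allele. Ifnar2, the other receptor chain, was at 0.16 in CD8 T and -0.04 in both Treg and macrophage barcodes. Irf9 was at 0.16 in CD8 T barcodes, and its interval in Rhox5-high barcodes was centred near 0 (-0.23 to 0.23), as was that of the kinase gene Tyk2 in Treg barcodes (-0.41 to 0.41).

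On the side of interferon gamma, Ifng in CD8 T barcodes was 278 CPM in WT against 862 CPM in Ifnar1-SA (log2 ratio 1.63, 1.56 to 1.71). Of the genes of its input and signalling, 5 of 9 measured ones were higher in Ifnar1-SA CD8 T barcodes (median 0.10), 3 of 8 in Treg (median -0.09), 8 of 9 in macrophage (median 0.11) and 3 of 8 in Rhox5-high barcodes (median -0.07). Irf1, a direct target of interferon gamma, had intervals that included 0 in CD8 T (0.15, -0.06 to 0.36), Treg (-0.19, -0.39 to 0.005), macrophage (0.01, -0.08 to 0.11) and Rhox5-high barcodes (-0.02, -0.15 to 0.11), and its Treg value was opposite in sign to the members. The receptor gene Ifngr1 was at -0.25 in CD8 T, -0.12 (-0.22 to -0.01) in Treg, 0.21 in macrophage and 0.01 in Rhox5-high barcodes. Ifngr2, the other receptor chain, was at 0.02 in macrophage and 0.06 in Rhox5-high barcodes and below 20 CPM in the T cell gates. Socs1, an inhibitor of the pathway, was at -0.22 in Treg, 0.32 in macrophage and -0.43 in Rhox5-high barcodes. Ptpn2 was at -0.06 in CD8 T, Jak2 at 0.22 in Treg, Irf8 at -0.02 in macrophage and Jak1 at 0.12 in Rhox5-high barcodes.

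Targets that lean towards interferon gamma were mixed: 9 of 14 measured ones were higher in Ifnar1-SA CD8 T barcodes (median 0.24), 11 of 14 in Treg (median 0.30), 7 of 15 in macrophage (median -0.14) and 2 of 11 in Rhox5-high barcodes (median -0.14). Those highest in CD8 T barcodes were H2-Ab1 (1.97) and H2-Eb1 (1.77), class II genes that macrophages of WT held at 5020 CPM and 5288 CPM, and the lowest were Serpina3g (-0.28) and Psmb9 (-0.21). In Treg barcodes the chemokine genes Cxcl9 (1.47) and Cxcl10 (1.43) were highest, and the lowest were the Socs1 and Irf1 values given above. In macrophages H2-Eb1 (-0.93) and Cd74 (-0.93) were lowest, opposite in sign to the members, and Socs1 and Nlrc5 (0.15) were highest. In Rhox5-high barcodes Cxcl9 (-1.21) and Cxcl10 (-0.77) were lowest, and Cd74 (0.63) and Psmb8 (0.07) were highest.

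The conjugation machinery for ATG8 proteins, which effector GTPases need to find a vacuole, and related autophagy genes had 10 of 12 measured genes higher in Ifnar1-SA CD8 T barcodes (median log2 ratio 0.19), 8 of 10 in Treg (median 0.39), 8 of 11 in macrophage (median 0.06) and 12 of 13 in Rhox5-high barcodes (median 0.08). The called gene was Sqstm1, an autophagy receptor, higher in Treg barcodes at 0.70 (0.42 to 0.99), and no other measured gene of the list was called in these 4 gates. The Treg gate also had Tax1bp1 at 0.52, Atg5 at -0.09 and Atg12 at -0.09. CD8 T barcodes had Lamp1 at 0.50, Sqstm1 at 0.32, Atg3 at -0.10 and Atg5 at -0.23. Macrophages had Tax1bp1 at 0.35, Map1lc3b at 0.11, Lamp1 at -0.02 and Map1lc3a at -0.25. Rhox5-high barcodes had Map1lc3a at 0.39, Atg5 at 0.21, Sqstm1 at 0.04 and Atg12 at -0.03.

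**Figure D5:**
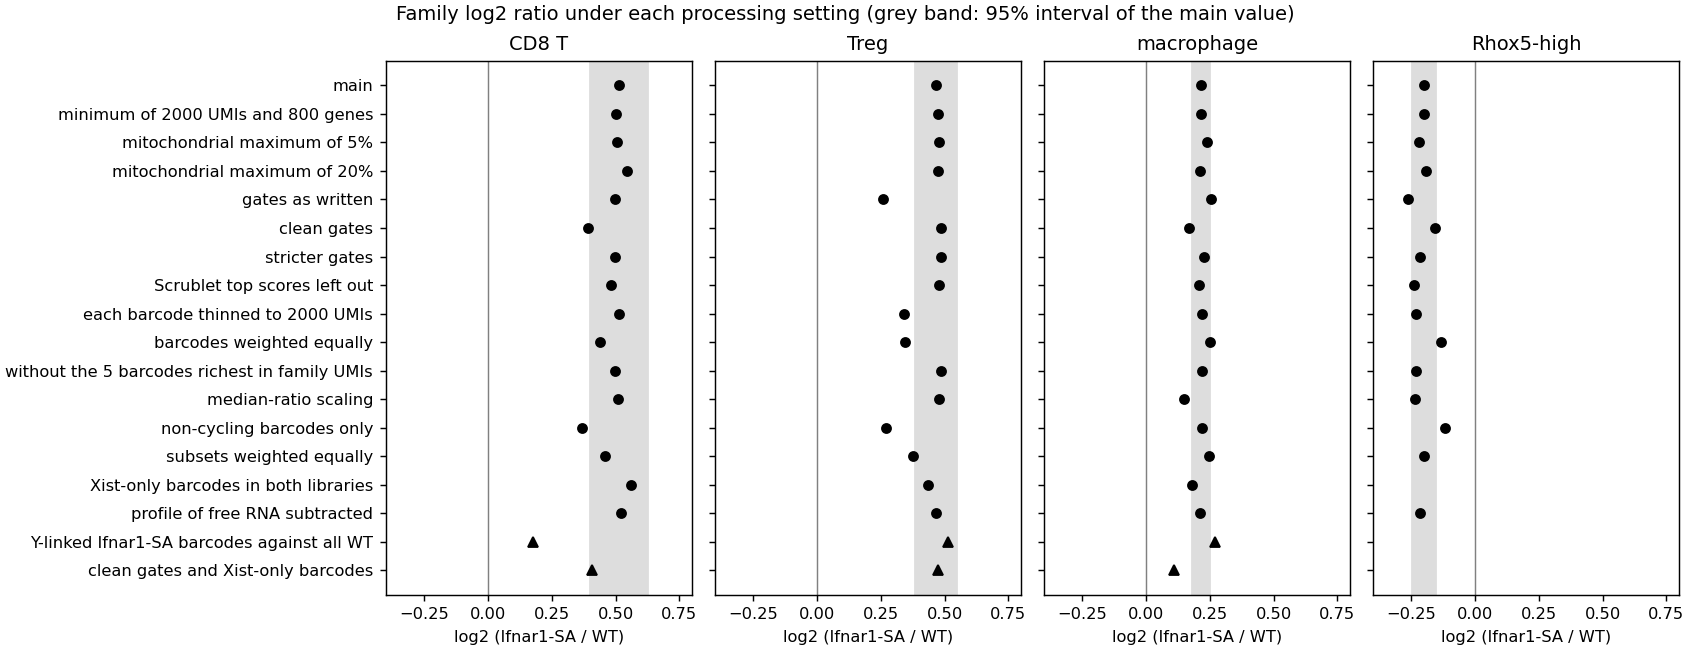
Log2 ratio of Ifnar1-SA over WT for the summed family (x axis) under each way of processing (y axis) in 4 gates; triangles are 2 settings added after seeing the data, circles are the others, and the grey band is the 95% interval of the reported value. The values stayed above 0 in CD8 T, Treg and macrophage barcodes and below 0 in Rhox5-high barcodes in the settings shown, and the CD8 T value was lowest, at 0.18, with Y-linked barcodes of Ifnar1-SA.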

How the data were processed

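The deposited files hold raw UMI counts per gene and barcode for 1 library of each genotype, made by the authors with Cell Ranger on mm10 per the submitters' processing notes; how it was run further is not stated there. All 6794880 listed barcodes were read, and a barcode was kept if it held 1000 or more UMIs from 500 or more genes, of which no more than 10% were mitochondrial. Kept barcodes had a median depth of 8016.5 UMIs (WT) or 7176 (Ifnar1-SA). UMIs were summed per gate and library and scaled to CPM over all genes. Intervals were exact: Poisson for levels, conditional binomial for ratios and Clopper-Pearson for shares. Only the ratio intervals were tried on simulated counts. Those counts were drawn from the Poisson model that the intervals assume, without spread between barcodes, so they do not check that spread. No doublet caller was used for the reported values. The members, gates and lists were chosen with earlier results of these data known. Named beside the members were Ifng, Ifngr1, Ifngr2, Irf1, Ifnar1, the 2 highest and 2 lowest genes of each list and gate, and the 10 genes most like the family; other names were chosen after their values were seen. Gm12250, Gm12187 and Gbp11 were not analysed here, and 1 further gene of the naming rule is counted in its list but not reported here. Alternatives covered filters, gates, Scrublet, weighting, scaling and free RNA. Python 3.11.15, numpy 2.4.6, scipy 1.17.1, pandas 2.3.3 and scanpy 1.11.5 were used.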

Additional observations from a re-analysis of the deposited data

Results flagged for a closer look

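The family had opposite signs between gates. Its log2 ratio of Ifnar1-SA over WT was -0.1984 in Rhox5-high barcodes and above 0 in CD8 T, Treg and macrophage barcodes, and the difference between gates was not tested. Igtp, Irgm1 and Iigp1 did the same with intervals that excluded 0 in all 4 gates. In Rhox5-high barcodes Igtp was at -0.2035, Irgm1 at -0.1876 and Iigp1 at -0.2804.

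Barcodes outside the gates also carried the family. Barcodes of 1 to 100 UMIs held 477.1 CPM of it in Ifnar1-SA, above the 353.5 CPM of WT. Barcodes that met more than 1 gate held 737.2 CPM in Ifnar1-SA and 674.1 CPM in WT.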

How the results depend on the processing

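The family ratio of Ifnar1-SA over WT kept its sign in all 17 alternatives in CD8 T, Treg and macrophage barcodes and in the 14 that gave a value in Rhox5-high barcodes; the other 3 left fewer than 20 Rhox5-high barcodes. In CD8 T barcodes (0.51) it was 0.39 with clean gates (no or few UMIs of other lineages), 0.37 in non-cycling barcodes and 0.18 with Y-linked Ifnar1-SA barcodes. Behind the Y-linked value were 162 family UMIs, and the interval of their level (174 to 238 CPM) overlapped that of WT (171 to 190 CPM). In Treg barcodes (0.47) it was 0.26 with gates as written, 0.34 after thinning, 0.35 with barcodes weighted equally, 0.27 in non-cycling ones and 0.38 with subsets weighted equally. In macrophages (0.22) it was 0.25 with gates as written, 0.17 with clean gates, 0.25 with barcodes weighted equally, 0.15 with median-ratio scaling, 0.27 with Y-linked barcodes and 0.11 with clean gates and Xist-only barcodes. In Rhox5-high barcodes (-0.20) it was -0.26 with gates as written, -0.13 with barcodes weighted equally and -0.12 in non-cycling ones. Macrophages over CD8 T barcodes in WT (1.78) gave 1.07 with gates as written, 1.63 after thinning, 1.37 with barcodes weighted equally, 2.01 with median-ratio scaling, 1.42 in non-cycling ones, 1.67 with subsets weighted equally, 1.89 with free RNA subtracted and 1.86 with clean gates and Xist-only barcodes. In Ifnar1-SA (1.49) the values were 0.82, 1.33, 1.19, 1.62, 1.28 and 1.58 for the same settings other than subsets and Xist-only, 1.62 with clean gates and 1.88 with Y-linked barcodes. Of 455 values of single members, 401 lay within the interval of the reported value and 31 had the opposite sign. Of these, 29 belonged to 8 values whose own interval included 0, such as Tgtp2 in macrophages (-0.26 to 0.74). The other 2 were Irgm1 in CD8 T barcodes with Y-linked barcodes (-0.36) and Irgm1 in Rhox5-high barcodes after thinning (0.17). The cause of these moves was not tested. The 2 settings that use Y-linked barcodes, or clean gates with Xist, were chosen after seeing the data. Scrublet's highest scores removed 132 WT and 200 Ifnar1-SA barcodes. No paired analysis was possible because each genotype has 1 library, and for the same reason no replicate could be left out. Depth limits Tgtp1, with 8 and 9 UMIs in CD8 T barcodes.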
